A study of Homo sapiens with 8 samples.

Results

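TP63, the gene of the transcription factor p63, and 6 genes of the hemidesmosome, COL17A1, ITGA6, ITGB4, LAMA3, LAMB3 and DST, were followed in HMLE cells, an immortalised line of human mammary epithelial cells. The 7 genes were taken by symbol, and each matched 1 of the 36601 gene rows of the count matrices. The study asked how such cells pass from an epithelial to a mesenchymal state (EMT) under the growth factor TGF-β, with and without pyridostatin, a ligand of G-quadruplex DNA. RNA molecules of each cell were counted by their UMIs (unique molecular identifiers) in 4 libraries of a 5′ kit, and 12 samples carried 1 short barcoded oligonucleotide each. Every library is labelled with 12 pooled samples, and no smaller pool is named. By barcode counts, however, only 6 of the 12 were present in any library. For the first 2 libraries these ran from SBO01 up to SBO06. The last 2 had the others, SBO07 up to SBO12. A split into 2 pools, each loaded on 2 libraries, is inferred from these counts and is not labelled. Which barcode marks TGF-β, pyridostatin, an untreated culture or a time is not given in the labels. The 12 barcode populations are therefore single samples of 1 line under conditions not known here, and their levels are given by value, range and median with no test between them. Each population was found in 2 libraries, taken here as 2 loads of 1 pool that measure technical spread only.

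Hemidesmosomes anchor basal epithelial cells to the basement membrane. Their integrin, a pair of the ITGA6 and ITGB4 chains, binds outside the cell to a laminin that holds the chains of LAMA3 and LAMB3, sits beside the transmembrane collagen of COL17A1, and is tied inside the cell to keratin filaments by the plakins PLEC and, in its epithelial form, DST. In stratified and glandular epithelia p63 marks the basal layer and is known to activate basal keratins and many adhesion genes. In the mammary gland the same layer carries KRT5 and KRT14, while luminal cells carry KRT8 and KRT18.

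The results below turn on SBO05, SBO01 and SBO12. Their barcodes, read from the deposited feature table, are shown whole in capitals because these populations are named by barcode only. Each cell was assigned by a rule over all barcodes present in its library.
SBO05: TGGTGACAAGTATCT
SBO01: GGACGCAACTTAAGA
SBO12: AGAGCTAGGATCGGA

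LAMA3 and LAMB3 shared an order over the populations that COL17A1 did not, so the 250 bases before the RefSeq start of these 3 genes are shown, from the table built on GRCh38.p14. They lie at chr18:23872770-23873019 on the plus strand, chr1:209652426-209652675 on the minus strand and chr10:104085881-104086130 on the minus strand. Capitals mark the AP-1 motif TGANTCA in LAMA3 and a p53 family motif in COL17A1, each searched on both strands. The p53 family includes p63, and the search did not tell p63 from its other members.
LAMA3: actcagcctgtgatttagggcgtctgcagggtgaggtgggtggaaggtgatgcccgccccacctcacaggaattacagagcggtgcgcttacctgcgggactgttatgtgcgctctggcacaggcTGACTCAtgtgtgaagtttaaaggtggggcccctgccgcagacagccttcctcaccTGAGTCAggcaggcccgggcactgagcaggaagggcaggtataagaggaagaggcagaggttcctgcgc
LAMB3: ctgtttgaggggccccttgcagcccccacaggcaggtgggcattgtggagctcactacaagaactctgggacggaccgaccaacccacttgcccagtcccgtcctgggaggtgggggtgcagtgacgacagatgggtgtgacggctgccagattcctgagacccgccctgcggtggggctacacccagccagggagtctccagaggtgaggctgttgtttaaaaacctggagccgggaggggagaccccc
COL17A1: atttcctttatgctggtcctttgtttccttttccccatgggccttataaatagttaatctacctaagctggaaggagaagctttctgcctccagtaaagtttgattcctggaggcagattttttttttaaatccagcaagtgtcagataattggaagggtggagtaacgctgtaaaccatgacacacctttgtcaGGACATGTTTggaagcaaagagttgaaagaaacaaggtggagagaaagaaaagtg

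Of the 7 genes, 6 had such a window. The AP-1 motif was found at 2 places in LAMA3, as TGACTCA 125 bases and as TGAGTCA 69 bases before the start, and at none in the windows of the others. Windows with it made up 6.57% of 35116 promoters of the same length. The p53 family motif occurred once, in COL17A1, as GGACATGTTT 55 bases before the start, and 5.57% of the promoters held it. A match describes the letters only.

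In GENCODE 29, which gives GRCh38 coordinates, TP63 (ENSG00000073282) lies at chr3:189631416-189897279, with 6 distinct starts of coding transcripts spread over 158.4 kb. COL17A1 lies at chr10:104031286-104085957, ITGA6 at chr2:172427354-172506282, ITGB4 at chr17:75721328-75757818, LAMA3 at chr18:23689443-23956222, LAMB3 at chr1:209614870-209652466 and DST at chr6:56457987-56954628. The LAMA3 window printed above lies inside the gene, at an internal start. DST has 17 distinct starts over 484.7 kb. The matrices hold 1 row a gene, so the isoforms of TP63 that start at different promoters, and the epithelial and other forms of DST, cannot be told apart here.

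Of 26247 cell barcodes, 22147 had at least 1000 genes and at most 15% mitochondrial UMIs, with a median of 22198.5 to 38051 UMIs per cell in the 4 libraries. A single SBO was assigned to 11072 of them, 352 to 1864 cells a population, and 10233 of these reached the 10000 UMIs to which cells were thinned for every measure per cell. Assignment was weakest in SBO12, where another barcode had more UMIs in 774 of 1227 cells, followed by SBO11 with 156 of 525, SBO02 with 114 of 564, SBO01 with 103 of 1718 and SBO04 with 58 of 352. In SBO05 this held for 0 of 1864 cells. With or without these cells, 6 of the 7 genes had their lowest level in SBO05. By a stricter rule, in which the top barcode has at least 10 UMIs and 3 times the second, only 98 cells fell to SBO12. The SBO12 levels below are those of all 1227 cells, and its place in the order without the 774 is not shown. Mammary markers were present: summed basal markers came to 2136 CPM in SBO05 and 5048 to 15584 CPM elsewhere, and luminal markers to 3209 CPM in SBO05 and 7654 to 17960 CPM elsewhere. Of the leukocyte markers 6 of 8 stayed below 1 CPM in every population, PTPRC among them, as did 5 of 7 endothelial markers. The fibroblast markers PDGFRA, LUM and DPT were also below 1 CPM throughout, while the 8 fibroblast markers summed to 320 CPM in SBO05 and to 71.3 to 149 CPM elsewhere, mostly from THY1. VIM, which codes for vimentin, had 3306 CPM in SBO05 and 99.8 CPM in SBO11, its lowest population.

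Levels are given in CPM, a gene's UMIs scaled to all UMIs of the population. TP63 was highest in SBO01, at 25.7 CPM (23.8 and 27.7 CPM in libraries 1 and 2), and next highest in SBO12, at 17.0 CPM (18.8 and 15.3 CPM in libraries 3 and 4). The median of the 12 populations was 7.77 CPM. Its lowest level was 1.30 CPM in SBO05 (1.81 and 0.69 CPM), from 54 UMIs, with an exact 95% Poisson interval of 0.978 to 1.70 CPM that covers counting error only. SBO05 thus held 16.2% of the median of the other 11 populations. Between these ends, 9 populations lay between 6.52 and 10.9 CPM. SBO08 headed them, and the other 8 were not separated from their neighbours in both libraries.

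COL17A1, the transmembrane collagen, followed the same order at both ends. It stood at 78 CPM in SBO01 and 72.5 CPM in SBO12, with a median of 34.0 CPM and 3.30 CPM in SBO05. The values of SBO05 in libraries 1 and 2 were 4.15 and 2.28 CPM, 9.11% of the median of the others. ITGA6 had 189.5 CPM in SBO01, a median of 93.9 CPM and 26.3 CPM in SBO05. At 27.5% of the median of the others, ITGA6 had the highest such share of the surface receptors. Its integrin partner ITGB4 had 159.9 CPM in SBO01 and 159.4 CPM in SBO12, a median of 80.5 CPM and 10.4 CPM in SBO05. For both integrin chains and COL17A1, SBO01 and SBO12 were not separated from each other, and both were separated from the next population in both libraries.

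The laminin chains had another order. LAMA3 was highest in SBO03, at 209 CPM (199.1 and 220.4 CPM in libraries 1 and 2), had a median of 126 CPM, and was lowest in SBO05 at 21.8 CPM. SBO12, second in TP63, held the second lowest LAMA3 level at 86.7 CPM. LAMB3 likewise peaked in SBO03 at 203 CPM, with a median of 139.7 CPM and 15.6 CPM in SBO05. SBO01 held 137 CPM of LAMA3 and 156.9 CPM of LAMB3, within the range of the remaining populations.

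DST, the plakin, was the exception in SBO05. It had 177 CPM in SBO01, 173 CPM in SBO12 and 126 CPM in SBO05 (120.2 and 132.8 CPM in libraries 1 and 2), next below those. The median was 89.6 CPM and the lowest level 71.2 CPM in SBO10. In SBO05 it thus stood at 141% of the median of the other 11 populations, and it was separated from its neighbours in both libraries. Of the other hemidesmosome genes, PLEC was lowest in SBO05 at 104.1 CPM but with a highest level of only 164.9 CPM. ITGB1, ITGA3 and the tetraspanin CD151 were highest in SBO05, at 348, 68.3 and 462 CPM.

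**Figure D1:**
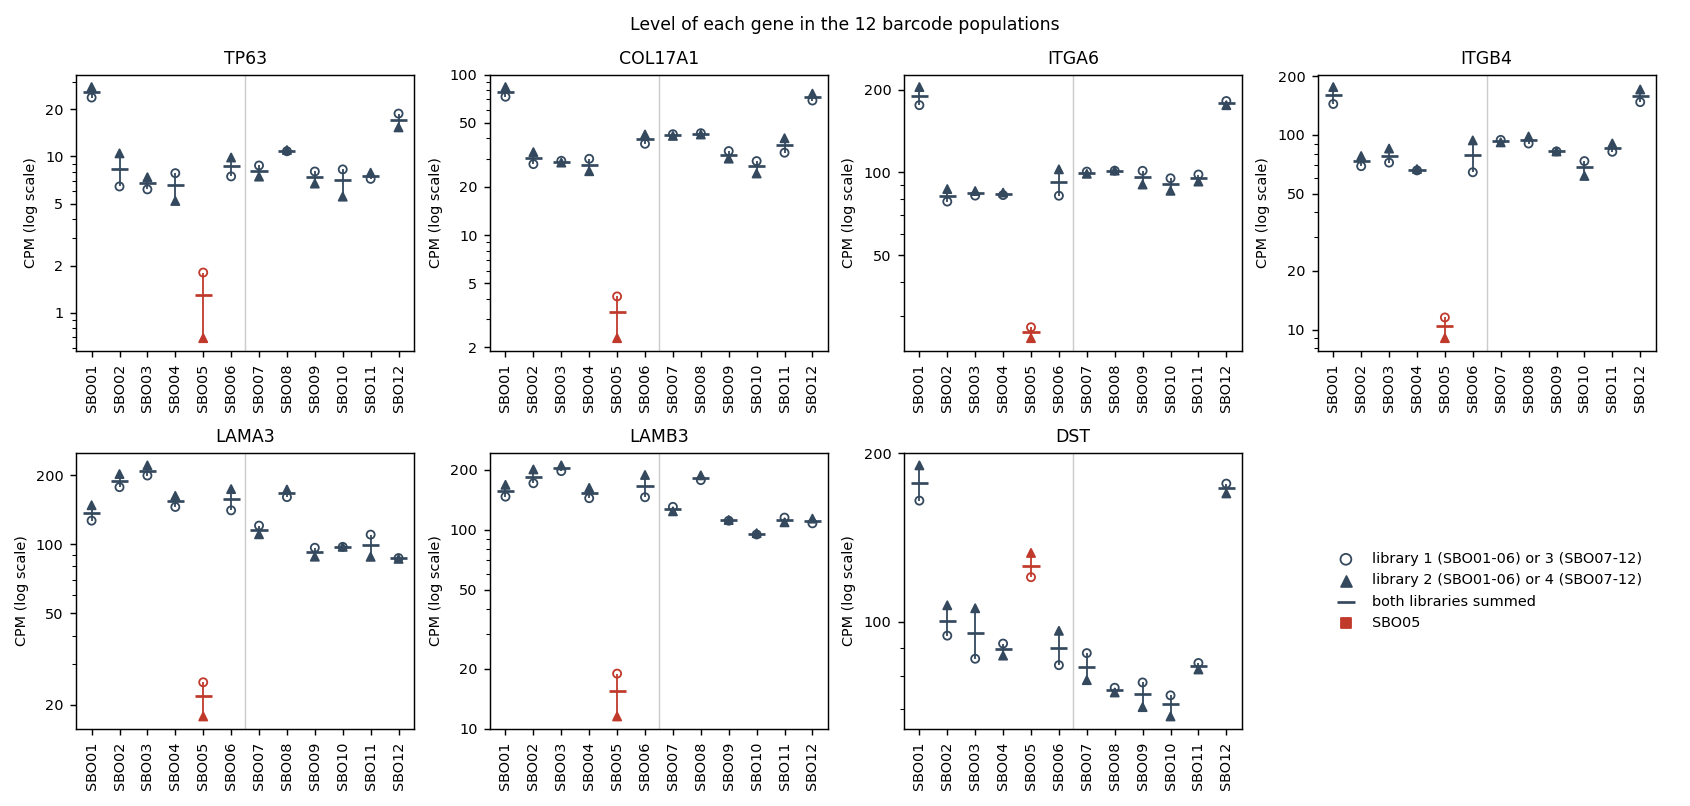
Level of each gene in CPM (log scale) in the 12 barcode populations. Open circles and triangles are the 2 libraries of a population, dashes both summed, and SBO05 is in red. SBO05 lies lowest in 6 of the 7 genes, while DST in SBO05 stands at 126 CPM, below SBO01 and SBO12 only.

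The range over the populations, on the log2(CPM + 1) scale, ran from 1.30 for DST to 4.20 for COL17A1. Over the 6097 genes averaging 20 CPM or more the median range was 0.50, and 5.61% of them had a range of 2 or more. All members but DST exceeded 2. A lowest level in SBO05 was common, at 29.2% of those genes, and 6 of the 7 members shared it. Without SBO05 the ranges were 1.09 to 1.83, against a median of 0.36 over all genes. The populations fell into separate groups, so correlations over them are given as descriptions. Those between members leave SBO05 out. Over the other 11 populations TP63, COL17A1, ITGA6 and ITGB4 correlated with each other at a Pearson r of 0.93 to 0.97, and DST with these 4 at 0.82 to 0.86. In all these genes SBO01 and SBO12 stood above the remaining populations, and so weigh heavily in these values. LAMA3 and LAMB3 correlated with each other at 0.96 and with the other members at between -0.39 and 0.10.

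Among genes outside the list averaging 20 CPM or more, PTHLH, the gene of a parathyroid hormone-related protein, had the level most like TP63 over the 12 populations, at an r of 0.99 and of 0.97 without SBO05. SFN, a p63 target of the 14-3-3 family, the cystatin CSTA, SQOR and the basal keratin KRT5 followed, at 0.97 to 0.98. Without SBO05 these had 0.94 to 0.96. KRT5 had 1787 CPM in SBO12 and 73.2 CPM in SBO05. The 3 genes most opposed to TP63 were SCCPDH, NDUFB8 and ZFPM1, at -0.98 to -0.96, and at -0.96 to -0.92 without SBO05. Genes closest to the 7 members as a set were KRT17, KRT14, SFN, ANKS6 and MFAP5, with a mean r of 0.80 to 0.81 over all 12 populations.

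In single cells thinned to 10000 UMIs, TP63 was seen in few cells. A TP63 UMI was found in 22% of 1622 SBO01 cells, 14.9% of 1191 SBO12 cells and 3.96 to 11.7% of the cells of 9 populations. In SBO05 it was found in 17 of 1726 cells, 0.985% with an exact 95% binomial interval of 0.575 to 1.57%. The line offers no cell type known to lack TP63, so the share that free RNA alone gives was not measured. The share in SBO05, from the same depth and libraries as SBO01, is an upper value for it there. Unthinned, at medians of 20861.5 and 27715 UMIs per cell, the shares were 2.41% in SBO05 and 44.8% in SBO01. ITGA6 was found in 21.2% of SBO05 and 77.5% of SBO01 cells, ITGB4 in 6.78 and 72.8%, and COL17A1 in 2.14 and 47.5%. DST was found in 65.6% of SBO05 and 72.1% of SBO01 cells. The median cell of SBO05 had UMIs of 1 of the 7 genes, that of SBO01 and of SBO12 had 4, and that of the other 9 populations had 3. None of the 7 was seen in 19.2% of SBO05 cells, against 0.802% of SBO01 cells.

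EPCAM, an epithelial marker, was found in 41.2% of the 17 SBO05 cells with a TP63 UMI, in 15.9% of the 1709 SBO05 cells without TP63, and in 86.6% of 4103 cells of the other populations of libraries 1 and 2. COL17A1 was found in 23.5% of the 17 cells and LAMB3 in 47.1%, against 1.93 and 10.5% of the SBO05 cells without TP63. Whether cells of other populations were among them was not tested. Another barcode had more UMIs in 0 cells of SBO05.

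Laminin transcripts were unevenly spread over cells. Over all 10233 cells the variance of UMIs per cell exceeded the mean 9.09 times for LAMA3 and 5.70 times for LAMB3, and at most 1.94 times for the other 5 genes. A single SBO07 cell held 159 LAMA3 UMIs of its 10000. Across cells of a population LAMA3 and LAMB3 correlated at a median r of 0.68, the other 20 pairs at 0.055 to 0.29, as a description of sparse counts. Cells with over 20 UMIs of LAMA3 or LAMB3, a limit chosen after the counts were seen, numbered 28 of 10233 (0.274%), came from 10 populations and all 4 libraries, and held 9.13% of all LAMA3 and 6.37% of all LAMB3 UMIs. In 9 of them both genes passed the limit. None belonged to SBO05.

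These 28 cells were set beside other cells of the same populations and libraries. Of 6105 genes averaging 20 CPM or more in thinned cells, without LAMA3 and LAMB3, the 5 with the highest ratio were ITGA2, a collagen receptor chain, at 618 against 28.4 CPM, the matrix protein FN1 at 19086 against 1354 CPM, the gelatinase MMP9 at 900.0 against 70.8 CPM, the integrin chain ITGB6 at 354 against 29.5 CPM and CD109 at 586 against 49.9 CPM. COL17A1 had 368 against 48.2 CPM, DST 725 against 105.3 CPM, ITGB4 529 against 106.8 CPM and ITGA6 486 against 122 CPM. KRT5 and KRT14 were close in both, at 832 against 947 CPM and 1350 against 1286 CPM. The 28 cells were shallow, with a median of 12971 against 29732 UMIs and 4709.5 against 5840 genes, and had a median mitochondrial share of 4.71% against 1.55%. The part of depth and RNA quality in these levels was not tested.

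Whether the genes follow the epithelial-to-mesenchymal axis inside a population was asked by a score. It sets 12 mesenchymal genes, VIM among them, against 12 epithelial genes, EPCAM among them, each standardised over cells, and holds none of the 7 genes. Cells of each population in each library were divided into 3 equal tiers by the score, UMIs were summed per library, and the high tier was set against the low tier with library as a block (edgeR's quasi-likelihood test with Benjamini-Hochberg adjustment over 14905 genes, called at 0.05). All populations are thus equally present on both sides. Of the cells, 33.3% lay within 0.1 score units of a boundary. The 4 libraries are taken as 2 loads of each of 2 pools, so the p-values measure technical spread and differences between the pools, not spread between cultures.

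Summed over populations, all 7 genes were called higher in cells of high EMT score. For the laminin chains this did not hold within single populations. LAMA3 was higher in 6 and lower in 6, LAMB3 higher in 7 and lower in 5, and neither was called with thinned UMIs. In this comparison 30% of all genes tested were called, 15.2% higher and 14.9% lower, and the median log2 fold change was 0.36 over the 7 genes and 0.0054 over all genes. TP63 had 11.3, 14.1, 13.9 and 11.8 CPM in the high tiers of libraries 1 to 4, against 8.86, 9.54, 9.67 and 8.84 CPM in the low tiers. Every high value lay above every low value. TP63 averaged 12.8 ± 1.45 CPM at high and 9.23 ± 0.441 CPM at low score (SD, n = 4 each), a log2 fold change of 0.49 ± 0.06 (SE) with an adjusted p of 4.4e-05 by edgeR.

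COL17A1 had 40.1, 42.2, 56.5 and 56.1 CPM at high score, against 30.9, 35.3, 32.8 and 41.6 CPM at low score. It was higher at high score in each of the 4 libraries, although the values of different libraries overlapped, with a log2 fold change of 0.49 ± 0.06 (adjusted p = 4.1e-05, edgeR). ITGB4 averaged 105.3 ± 19.3 CPM at high and 82.5 ± 12.1 CPM at low score (SD, n = 4 each), a log2 fold change of 0.37 ± 0.04 (adjusted p = 2.8e-06, edgeR). DST averaged 124.8 ± 15.9 CPM at high and 98.4 ± 9.75 CPM at low score (SD, n = 4 each), a log2 fold change of 0.36 ± 0.03 (adjusted p = 1.3e-07, edgeR). ITGA6 and the laminin chains changed least, with log2 fold changes of 0.18 for ITGA6, 0.14 for LAMB3 and 0.10 for LAMA3. Each of these was higher at high score in 4 of 4 libraries.

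**Figure D2:**
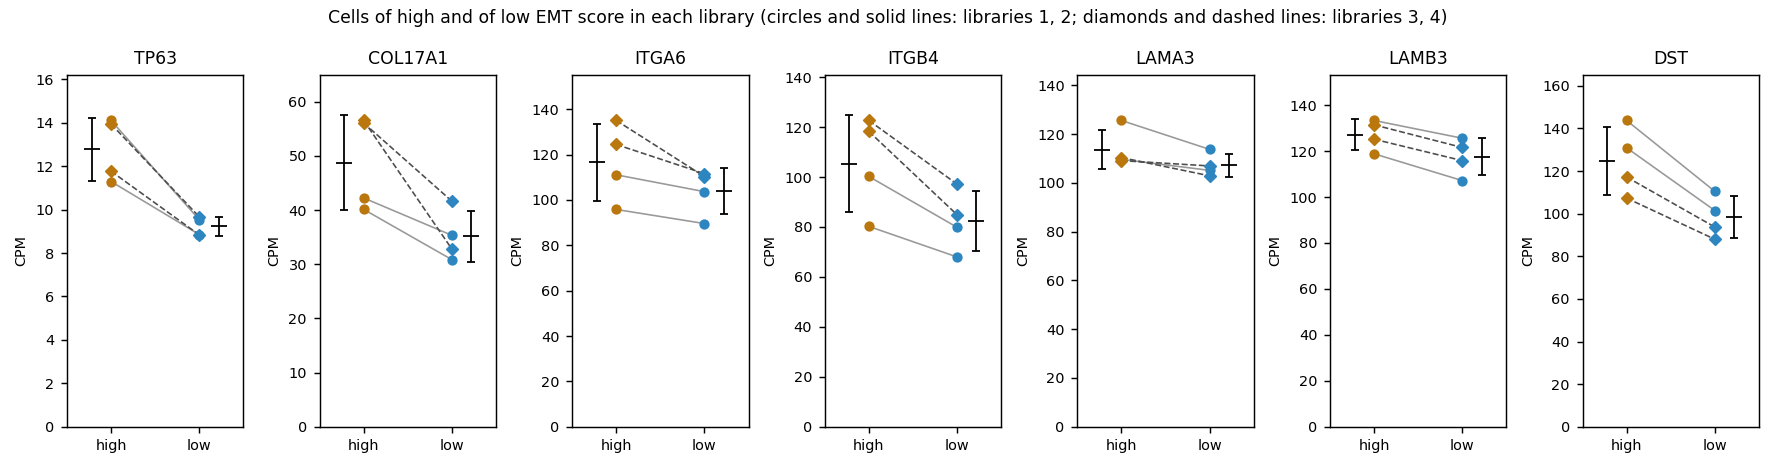
CPM of each gene in the high (left) and low (right) tiers of cells by EMT score, with lines joining the 2 tiers of a library and the mean ± SD of 4 libraries at the sides. In every library and gene the high tier lies above the low tier, as for TP63 in library 2 at 14.1 CPM in the high and 9.54 CPM in the low tier.

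Most of a list of other hemidesmosome genes rose as well, while more of the p63 targets fell than rose. Of 5 other hemidesmosome genes 4 rose, ITGA3 at a log2 fold change of 0.36, COL7A1 at 0.28, ITGB1 at 0.25 and PLEC at 0.16, while CD151 had 0.03 and did not pass. With thinned UMIs COL7A1 was not called (0.17, adjusted p = 0.25, edgeR). Of 21 known p63 targets 4 were higher and 12 lower at high score, with a median log2 fold change of -0.30. The higher ones were the calcium-binding protein S100A2 at 0.36, the basal keratins KRT5 at 0.29 and KRT14 at 0.17, and BNC1. The desmosome genes PKP1 and DSC3 fell by 0.49 and 0.46 on the log2 scale, and TRIM29 by 0.32. Among 15 measured basement membrane genes 5 rose, COL4A1 at 0.54 and COL4A2 at 0.27 among them, and 3 fell. Of 10 measured basal mammary markers 7 rose and 2 fell, and of 9 luminal markers 1 rose and 7 fell. The tiers thus differed in basal and luminal markers too, and which of these axes the members follow was not tested.

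Within single populations, TP63, COL17A1, ITGA6 and ITGB4 were higher at high score in 11 of 12, and lower in SBO05 in each case. DST was higher in 12 of 12, by 0.11 to 0.49 on the log2(CPM + 1) scale. LAMA3 was higher in 6 and lower in 6, and LAMB3 higher in 7 and lower in 5. The widest rise of TP63 was 1.85 in SBO04, the population of fewest cells, at 10.2 against 2.10 CPM with 100 cells a tier. With tiers set over a whole library rather than within populations, 6 of the 7 genes turned to lower at high score, from -0.44 for TP63 to -1.11 for LAMB3, and none was called (edgeR, adjusted p of 0.23 to 0.67). DST stayed higher at 0.56. Without the library block 2 of the 7 genes were called, and 4 with every cell thinned to the same depth, where ITGA6 had 0.09, LAMB3 0.04 and LAMA3 -0.05. Without SBO05 the log2 fold changes were 0.17 for LAMA3 and 0.22 for LAMB3. By the stricter barcode rule, in which the top barcode has at least 10 UMIs and 3 times the second, LAMA3 and LAMB3 were not called (edgeR, adjusted p = 0.058 and 0.076), nor was LAMA3 without library 2 (0.055).

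SBO05 was then set apart, a comparison added after these directions were seen. In libraries 1 and 2 the tiers of SBO05 and those of the other 5 populations were fitted together. The difference between their responses was tested over 13830 genes. SBO05 is 1 sample, so these p-values, and those for SBO05 by squamous score below, measure spread between the 2 libraries only. Of the 7 genes 6 differed, all with SBO05 lower, where 13.3% of all genes differed, 9.18% with SBO05 lower and 4.16% with SBO05 higher. TP63 had 0.60 and 0.16 CPM in the high tiers of SBO05 in libraries 1 and 2, against 2.74 and 1.40 CPM in the low tiers, from 5 and 32 UMIs in all. In the other populations it had 15 and 18.7 CPM in the high tiers, against 11.3 and 12.3 CPM in the low tiers. The fitted log2 fold change was -2.40 ± 0.55 in SBO05 and 0.53 ± 0.10 in the rest, a difference of -2.93 ± 0.55 (SE, adjusted p = 0.00098, edgeR).

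COL17A1 had 0.90 and 0.99 CPM in the high tiers of SBO05, against 8.81 and 4.82 CPM in the low tiers. Its difference in log2 fold change between SBO05 and the rest was -3.26 ± 0.34. ITGB4 had 4.50 and 3.79 CPM at high, against 20.5 and 15.9 CPM at low score in SBO05, a difference of -2.50 ± 0.18 from the rest. LAMB3 differed by -2.18 ± 0.20, LAMA3 by -1.13 ± 0.17 and ITGA6 by -0.86 ± 0.12, each with an adjusted p of at most 0.00011 by edgeR. For LAMA3 DESeq2 did not call the difference (-1.06, adjusted p = 0.40). For DST the difference was 0.01 ± 0.07 (adjusted p = 0.94, edgeR), and the log2 fold changes were 0.39 ± 0.05 in SBO05 and 0.38 ± 0.04 in the rest. Inside SBO05, 9.59% of all genes were called lower and 6.80% higher at high score. In the rest of libraries 1 and 2, 11.5% were called higher and 12.0% lower. By the stricter barcode rule the differences were -2.39 for TP63 and -3.46 for COL17A1. With thinned UMIs they were -6.43 ± 1.57 for TP63, -2.31 ± 0.56 for COL17A1, -1.75 ± 0.30 for ITGB4 and -0.75 ± 0.19 for LAMA3. The thinned TP63 value is near the floor, since only 17 of 1726 thinned SBO05 cells over all tiers held a TP63 UMI. Whether the epithelial end of SBO05 holds cells of other samples was not tested beyond these settings.

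**Figure D3:**
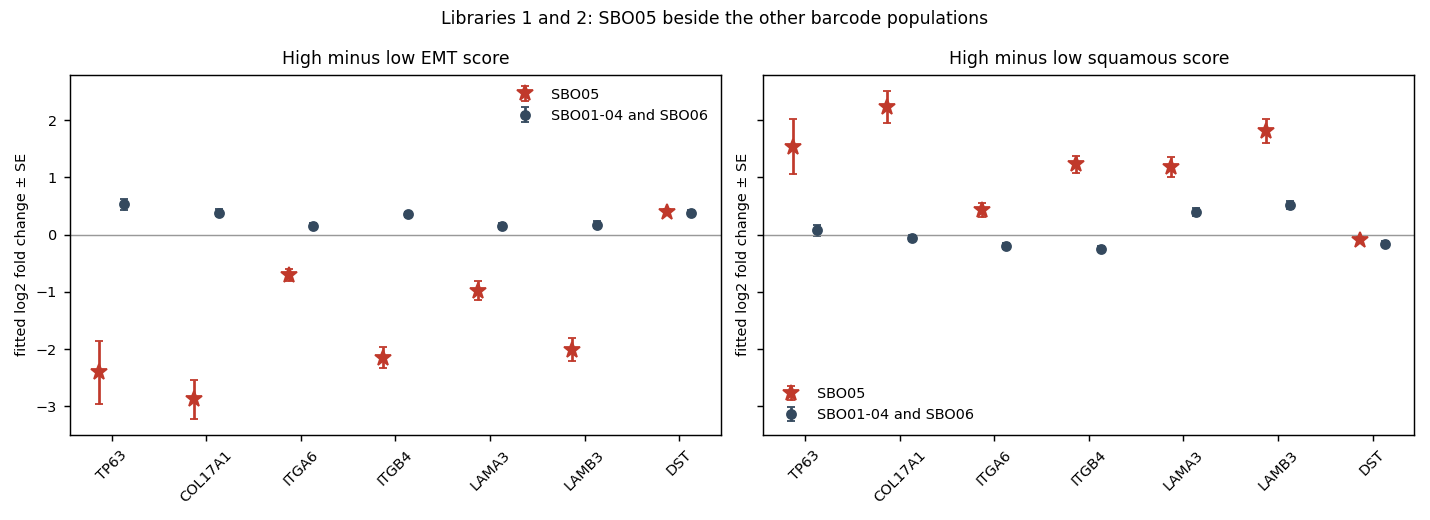
Fitted log2 fold change ± SE, high minus low score, in SBO05 (red stars) and in the other populations of libraries 1 and 2 (dark circles), by EMT score on the left and by squamous score on the right. By EMT score 6 genes lie below 0 in SBO05 and above 0 in the rest, and DST lies at 0.39 and 0.38.

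The second axis was squamous differentiation, the program of cornifying epithelia that p63 is known to govern in skin. Its score averages 12 standardised genes of that program, and tiers were set as before. Scores were narrower here, and 67.5% of the cells lay within 0.1 units of a boundary. Of 15003 genes 41% were called, 19.4% higher and 21.6% lower in cells of high squamous score. The members split: LAMA3 and LAMB3 rose, COL17A1, ITGA6, ITGB4 and DST fell, and TP63 did not pass (log2 fold change -0.06 ± 0.07, adjusted p = 0.55, edgeR).

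LAMA3 had 123.2, 158.7, 123.7 and 122.3 CPM in the high tiers of libraries 1 to 4, against 100.1, 106.9, 99.7 and 99.1 CPM in the low tiers. No value of one side reached the other, and the log2 fold change was 0.36 ± 0.04 (adjusted p = 1.3e-06, edgeR). LAMB3 had 135.2, 176.0, 134.8 and 137.9 CPM at high, against 103.0, 107.4, 117.5 and 114.2 CPM at low score, a log2 fold change of 0.38 ± 0.06. Without the 28 cells rich in laminin the log2 fold changes were 0.29 for LAMA3 and 0.33 for LAMB3.

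ITGB4 had 68.1, 85.4, 86.1 and 96.0 CPM at high squamous score, against 78.6, 97.4, 114.7 and 120.7 CPM at low score. It was lower in 4 of 4 libraries, with a log2 fold change of -0.30 ± 0.04 (adjusted p = 6.3e-06, edgeR). ITGA6 changed by -0.24, COL17A1 by -0.19 and DST by -0.17, each lower in 4 of 4 libraries. For COL17A1 the call rested on libraries 3 and 4, with -0.12 (adjusted p = 0.083) without library 3 and -0.13 (adjusted p = 0.094) without library 4 (edgeR). Without the library block none of the 4 was called lower by edgeR, and with tiers over a whole library 1 was. With thinned UMIs DST had -0.11 and was not called (adjusted p = 0.052, edgeR), and by the stricter barcode rule COL17A1 had -0.35 and DST -0.28. Of the 21 p63 targets 16 rose and 1 fell, with a median log2 fold change of 0.51 against -0.01 over all genes. PKP1 rose by 0.85 and DSC3 by 0.53, both of desmosomes, and IGFBP3, a carrier of insulin-like growth factors, by 0.90. Genes that act on collagen and laminin at the cell surface also moved, 6 of 9 rising and 1, MMP2, falling. The gelatinase MMP9 rose by 1.31. MMP14, 1 of the 6, rose by 0.18 and was not called by DESeq2, with thinned UMIs or by the stricter barcode rule.

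Within populations ITGA6 and ITGB4 were lower at high squamous score in 11 of 12 and higher in SBO05 alone among the 12. COL17A1 and TP63 were lower in 9 and higher in 3, SBO05 and SBO01 among them for both. LAMA3 was higher in 11 and LAMB3 in 10. Fitted beside the other 5 populations of libraries 1 and 2, the response of SBO05 differed for 5 of the 7 genes, all with SBO05 higher, where 6.75% of 13811 genes differed, 4.76% with SBO05 higher and 1.99% with SBO05 lower. The differences in log2 fold change were 2.29 ± 0.29 for COL17A1, 1.47 ± 0.16 for ITGB4, 1.29 ± 0.22 for LAMB3, 0.77 ± 0.19 for LAMA3 and 0.63 ± 0.13 for ITGA6. Inside SBO05, 4.18% of genes were called higher and 0.623% lower at high score, and in the rest 15.2% and 13.5%. COL17A1 had 8.61 and 4.51 CPM in the high tiers of SBO05, against 1.92 and 0.84 CPM in the low tiers. TP63 differed by 1.46 ± 0.49 and DST by 0.07 ± 0.07, and neither passed (adjusted p = 0.083 and 0.68, edgeR). The responses of LAMA3, LAMB3 and ITGA6 were not called different by DESeq2 or without the block. With thinned UMIs ITGB4 was the 1 member called, at 1.04 (adjusted p = 0.032, edgeR).

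**Figure D4:**
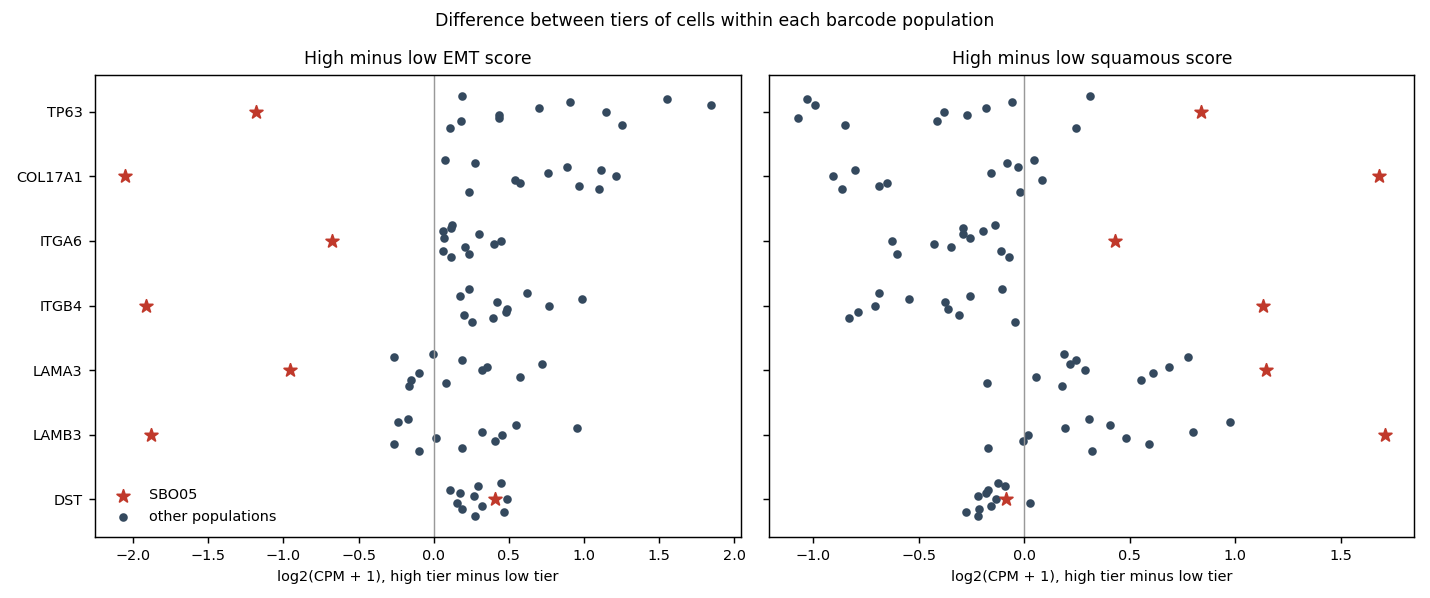
Difference on the log2(CPM + 1) scale between the high and the low tier of cells in each of the 12 populations, by EMT score on the left and squamous score on the right. Red stars are SBO05 and dark points the others. SBO05 lies at -2.06 for COL17A1 by EMT score and at 1.68 by squamous score, while for DST it lies among the others.

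Does a cell in which TP63 was seen carry more of the hemidesmosome? In each population and library the cells with at least 1 TP63 UMI among 10000 were set against an equal number without, drawn at random, which gave 955 cells on each side and equal depth. All 6 other members were higher in the cells with TP63, where 1.93% of 10616 genes were called, 0.895% higher and 1.04% lower. By DESeq2 3 of the 6 were called, COL17A1, ITGA6 and DST, and without the library block COL17A1 alone of the 6. Within single populations COL17A1 was higher in 12 of 12, ITGB4 in 11, and ITGA6 and DST in 10. LAMA3 and LAMB3 were each higher in 7 and lower in 5. SBO01 gave 357 and SBO12 177 of the 955 cells on each side, and SBO04 only 12. The median log2 fold change was 0.38 over the 6 genes and 0.0001 over all genes. COL17A1 had 81.3, 90.2, 75.0 and 89.9 CPM in cells with TP63 of libraries 1 to 4, against 51.3, 60.0, 48.0 and 65.9 CPM in cells without. The sides did not overlap, and the log2 fold change was 0.57 ± 0.09 (adjusted p = 1.2e-06, edgeR). Among 6082 genes averaging 20 CPM or more it ranked 8 by fold change.

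ITGA6 averaged 187 ± 18.7 CPM in cells with TP63 and 143 ± 14.9 CPM in cells without (SD, n = 4 each), with no overlap and a log2 fold change of 0.37 ± 0.06. DST rose by 0.39 ± 0.06 and ITGB4 by 0.32 ± 0.06, each higher in 4 of 4 libraries. LAMB3 had a log2 fold change of 0.47 ± 0.07 and LAMA3 of 0.37 ± 0.08, each higher in 3 of 4 libraries. In library 4 they were lower, LAMA3 at 156 CPM with and 213 CPM without TP63. Of these UMIs 30.0% and 49.1% lay in cells with over 20 laminin UMIs, 2 on each side. In library 2 all 7 such cells lay on the side with TP63 and held 32.9% of its LAMA3 UMIs. Without such cells LAMA3 stood at 194.4 against 133.7 CPM in library 2 and at 110.7 against 109.6 CPM in library 4, and its log2 fold change over the 4 libraries was 0.43 ± 0.06 (adjusted p = 2.8e-06, edgeR). The LAMA3 call was lost without library 2, at 0.09 (adjusted p = 0.77), and without library 3, at 0.40 (adjusted p = 0.19, edgeR). LAMA3 had 0.62 without library 4, 0.67 without SBO05, 0.56 under a stricter cell filter and 0.57 in another draw of cells. LAMB3 had 0.26 without library 2. Against cells without TP63, cells with at least 2 TP63 UMIs gave 0.19 for LAMA3 and 0.75 for LAMB3, neither called (adjusted p = 0.88 and 0.10, edgeR), and 0.74 to 1.17 for the other 4 genes, all called. Without library 3 the number of genes called was 94 rather than 205.

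**Figure D5:**
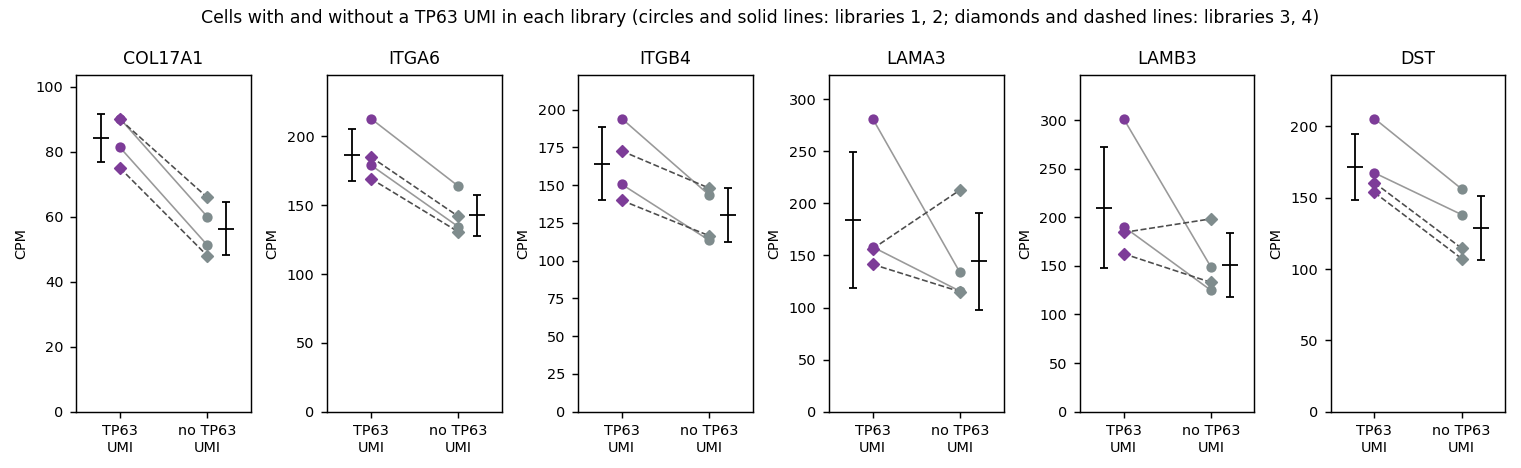
CPM of the 6 other genes in thinned cells with a TP63 UMI (left) and without (right), lines joining the sides of a library, with the mean ± SD of 4 libraries. COL17A1 lies at 75.0 to 90.2 CPM with and 48.0 to 65.9 CPM without TP63, while LAMA3 and LAMB3 cross in library 4.

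Among the other hemidesmosome genes PLEC rose by 0.29 in cells with TP63, while COL7A1 at 0.41, ITGA3 at 0.24, ITGB1 at 0.04 and CD151 at -0.08 did not pass. The PLEC call was lost without library 3 (0.20, adjusted p = 0.28, edgeR), by the stricter barcode rule (0.17), by DESeq2, without the block and at 2 or more TP63 UMIs. Of 20 measured p63 targets 10 rose, DSC3 by 0.54, KRT14 by 0.38 and S100A2 by 0.35, and the other 10 did not pass. DSC3 was not called by the stricter barcode rule (0.33), in another draw of cells (0.35), by DESeq2, without the block or at 2 or more TP63 UMIs. Among called genes averaging 20 CPM or more, the 5 with the highest fold change were the cytokine IL1B at 0.95, the activin antagonist FST at 0.73, FRMD4B at 0.73, the cytokine IL1A at 0.71 and SNAI2, a transcription factor of basal cells and of EMT, at 0.68. SNAI2 had 0.37 without library 1 (adjusted p = 0.36, edgeR), and its call was also lost by DESeq2 and without SBO12. FRMD4B had 0.37 without laminin-rich cells (adjusted p = 0.25, edgeR) and was not called by DESeq2, nor was IL1A. By the stricter barcode rule IL1B had 0.60 and FST 0.46. The 5 lowest were the elastase inhibitor PI3 at -1.48, the keratin KRT13 at -1.22, RARRES1 at -1.17, IGFL1 at -1.05 and C15orf48 at -1.03. PI3 was not called without library 1 (-0.056, adjusted p = 0.98, edgeR), without SBO05 (-0.18), in another draw of cells (-0.50), under a stricter cell filter (-0.34), by the stricter barcode rule (0.12) or by DESeq2. KRT13 had -2.0 without library 1, -0.80 without SBO05 and -0.80 without library 3, where it was not called (adjusted p = 0.18, edgeR), nor was it by DESeq2. IGFL1 had -0.69 without SBO05. Basal markers rose in 6 of 9 cases, and of 9 luminal markers 5 fell, KRT8 and KRT18 among them. Of 12 measured basement membrane genes outside the list none passed (edgeR).

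The pools inferred for libraries 1 and 2 and for libraries 3 and 4 differ in the barcodes present. The difference of each response between these pools was tested. By EMT score 1.58% of genes differed, and of the members 0 passed by edgeR, 3 with an unadjusted p under 0.05 and 0 by DESeq2. By squamous score 1.73% of genes differed, COL17A1, ITGB4 and LAMB3 among them. None of these 3 was called without SBO05, without the block or with thinned UMIs. By DESeq2 ITGB4 and LAMB3 were not called, and COL17A1 was given no adjusted p. The ITGB4 difference was also lost on leaving out any 1 of the 4 libraries (-0.22 to -0.14, adjusted p of 0.10 to 0.36, edgeR), and that of LAMB3 without library 2 (-0.14, adjusted p = 0.27, edgeR). COL17A1 had a log2 fold change of -0.36 ± 0.05 in the pool of SBO07 to SBO12 and -0.01 ± 0.05 in the pool of SBO01 to SBO06. LAMB3 had 0.21 ± 0.04 and 0.56 ± 0.04 in the same pools. By presence of TP63, where 0.292% of genes differed, LAMA3 had -0.09 ± 0.09 and 0.76 ± 0.08, and LAMB3 0.08 ± 0.09 and 0.80 ± 0.08. Without cells of over 20 laminin UMIs these differences were -0.10 for LAMA3 (adjusted p = 0.97) and -0.35 for LAMB3 (adjusted p = 0.58, edgeR), and they were not called in another random draw of cells either.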

How the data were processed

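HMLE cells in 12 barcoded samples were measured in 4 mRNA and 4 barcode libraries, 8 deposited samples in all. The deposited matrices hold raw UMI counts per gene and cell, made with bcl2fastq 2.20.0.422 and Cell Ranger 6.0.2 on hg38, with Seurat 4.1.0 also named, per the submitters' processing notes. Libraries hold 139331790 to 179421284 gene UMIs. From these counts, cells were kept that had 1000 genes or more and a mitochondrial share of up to 15%, and a barcode was assigned with HTODemux (Seurat 5.3.0, quantile 0.99), which removed 5510 doublets and 5565 negatives. No other doublet caller was run. A cell barcode occurred in 2 or more libraries 899 times, and libraries were kept apart. UMIs were summed per library and tier and tested with edgeR 4.0.16 (quasi-likelihood, TMM, library as block, genes of low count filtered, Benjamini-Hochberg adjusted p under 0.05) on 8 sums a contrast. SE is the log2 fold change over the root of F. The block pairs both tiers of 1 library, since they are cells of the same load. Tested on simulated data with 200 changed genes, the fits recovered 98% (EMT), 90% (squamous) and 85.9% (TP63) of genes changed by a log2 of 1. Of those changed by 0.5 they recovered 77.8%, 80.8% and 59%. The counts were drawn with the dispersions that edgeR had fitted to these data. Changes below 0.5, as most members' were, were not tried. Intervals are exact and cover counting error only. DESeq2 1.42.0 and the other settings are in the closing section. The named genes are the members, the other hemidesmosome genes, up to 3 called genes of the target, basement membrane and shedding lists in either direction, the 5 called genes of highest and of lowest fold change by TP63, and the 5 most and 3 least like TP63 and 5 most like the members over populations, all averaging 20 CPM or more. Some genes of these lists are not reported here and are left out of their counts. BNC1, the markers and genes of laminin-rich cells were named after their values were seen. Members and lists were chosen with earlier results of these data known. Squamous, laminin-rich and SBO05 comparisons use the same cells and are not independent. Some populations may hold cells of other samples, since assignment was rebuilt here.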

Additional observations from a re-analysis of the deposited data

Results flagged for a closer look

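In 1 of 27 groups of 4 library values a library stood far from the others, about the share that chance gives (1 in 20). It was the log2 difference of LAMA3 between high and low squamous score, where library 2 stood apart with a gap of 0.9597 of the range, over Dixon's critical value for 4 samples.

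The response to squamous score differed between the pool of SBO07 to SBO12 and the pool of SBO01 to SBO06, by -0.353 for COL17A1, -0.2035 for ITGB4 and -0.3495 for LAMB3 on the log2 scale (edgeR interaction). Between cells with and without TP63 the pools differed by -0.8561 for LAMA3 and -0.7197 for LAMB3. Neither was called without cells of over 20 laminin UMIs.

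By EMT score the response of SBO05 differed from that of the other populations of libraries 1 and 2 by -2.9306 for TP63, -3.261 for COL17A1, -0.8561 for ITGA6, -2.5021 for ITGB4, -1.1325 for LAMA3 and -2.1844 for LAMB3 on the log2 scale. By squamous score it differed by 2.2852 for COL17A1, 0.6307 for ITGA6, 1.4741 for ITGB4, 0.7732 for LAMA3 and 1.29 for LAMB3. These comparisons were added after the directions had been seen.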

How the results depend on the processing

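Of the counts of calls 154 stayed within 1.5 times and 51 moved, and of the fold changes 994 kept direction and call, 178 lost and 2 gained the call and 19 changed sign. Of the ranges over populations 165 moved by less than the spread between libraries and 51 by more, 20 of the 63 for members among them. SBO05 held the lowest level of 6 members in every setting tried for levels. The cause of each change was not tested. Leaving out 1 library gave 3422 to 3750 genes called by EMT score (6 to 7 members), 5106 to 5387 by squamous score (3 to 4 members lower) and 94 to 258 by TP63, and for members that differed between pools 0 to 1 by EMT, 1 to 3 by squamous score and 0 to 2 by TP63. Its ranges crossed 0, on the far side without library 3, at -0.13 to 0.0049 for TP63 by squamous score and -0.022 to 0.14 for ITGB1 by TP63. It was not possible for SBO05, where no residual degrees of freedom remain.

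Without the replicate block, which pairs the tiers of a library, 967 genes and 2 members were called by EMT score, 1904 genes and 0 lower members by squamous score, and 26 genes and 1 member by TP63. DESeq2 called 2198, 3542 and 39 genes, with 3 members by TP63. Thinned UMIs gave 2684 genes and 4 members by EMT score, with LAMA3 at -0.049, and 3561 genes by squamous score, with TP63 at 0.048. Tiers over whole libraries gave 360 genes and 0 members by EMT score and 1 lower member by squamous score, where PLEC had 0.030. Their EMT values were -0.44 for TP63, -0.58 for COL17A1, -0.52 for ITGA6, -0.73 for ITGB4, -1.04 for LAMA3, -1.11 for LAMB3, -0.76 for KRT14, -0.76 for KRT5, -0.10 for PLEC and -0.36 for S100A2. By TP63 the top barcode rule called 334 genes, with PI3 at 0.12, and at least 2 TP63 UMIs 38. With at least 2000 genes and at most 10% mitochondrial UMIs the pool difference of LAMA3 was 0.059. ITGB1 had -0.0014 without SBO12, and CD151 -0.0041 by EMT score without SBO05.

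Members that differed between pools by EMT score, 0 in the report, were 1 with no filter, 4 by the top barcode rule, 1 under the stricter cell filter, 1 without SBO05, 2 without SBO12, 7 with tiers over whole libraries and 1 without laminin-rich cells. By squamous score, 3 in the report, they were 0 without the block, by DESeq2, without SBO05 and thinned, 1 with no filter, 6 by the top barcode rule, 5 without SBO12 and 7 with tiers over whole libraries. By TP63, 2 in the report, they were 0 without the block, by DESeq2, with no filter, by the top barcode rule, under the stricter cell filter, without SBO05, without SBO12, at 2 TP63 UMIs, without laminin-rich cells and in another draw. The members by which SBO05 differed by squamous score, 5 in the report, were 2 without the block, 2 by DESeq2 and 1 thinned. Laminin-rich cells, the other draw and SBO05 were set apart after the data were seen. TP63 depth limits SBO05, with 54 UMIs in all.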
